A study of Homo sapiens with 16 samples.

Results

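The genes of homologous recombination, of the Fanconi anemia pathway and of the DNA damage checkpoint were followed in MUTZ-3 cells given a PARP inhibitor (PARPi) or depleted of *EVI1*. The 48 genes were taken by name from a fixed list, and each was required to reach 10 counts in at least 3 of the 16 libraries. All 48 passed this filter, among 18597 genes that passed of 60623 in the files. MUTZ-3 is a human myeloid leukemia line in which an inversion of chromosome 3 drives *EVI1*, which the files list as *MECOM*. In the PARPi experiment, cells were collected after 12, 24 or 48 h in the vehicle DMSO, in olaparib at 10 µM or in talazoparib at 1 µM, and untreated cells at 0 h gave another library. In the knockdown experiment, cells carried a lentiviral vector with a non-targeting control (NTC) or with 1 of 2 shRNAs against *EVI1*, shEVI1-2531 or shEVI1-2532, were selected with puromycin and were collected at day 3 and day 6. All cells of both experiments were grown in the same medium, which contained GM-CSF and medium conditioned by a bladder carcinoma line. There was 1 library for each of the 16 conditions and thus no replicate, and MUTZ-3 is a single line.

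Homologous recombination repairs a DNA double-strand break from the sister chromatid. The break is resected by the MRE11-RAD50-NBN complex with CtIP (*RBBP8*) and by EXO1. BRCA1 with BARD1 promotes loading of the recombinase through PALB2 and BRCA2. The joined molecules are dissolved by the BLM helicase with RMI1 and RMI2 or cut by nucleases such as MUS81-EME1 and GEN1. SLX4 is a scaffold on which nucleases assemble. The Fanconi core complex with the ubiquitin-conjugating enzyme UBE2T modifies the FANCD2-FANCI pair at DNA crosslinks, and the kinases ATM and ATR signal to CHEK2 and CHEK1. Cells that lack these functions are sensitive to PARPi, and many of the genes are transcribed mainly in S and G2 phase. For this reason the members were compared with *PCNA*, the sliding clamp of DNA replication, and *MKI67*, a marker of cycling cells. In bulk RNA, fewer cells in cycle and less RNA per cell cannot be told apart.

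The stretches before the start sites of 4 members are shown because *BRIP1* and *BLM* were among the members with the largest or most certain falls, *FANCA* carries a match to an E2F-like motif, and *SLX4* was the member that rose. Each stretch holds the 250 bases before the RefSeq start site in GRCh38.p14, 5′ to 3′ on the gene's own strand, with motif matches in capitals. *BRIP1* lies at chr17:61863529-61863778 (minus strand), *BLM* at chr15:90717096-90717345 (plus strand), *FANCA* at chr16:89816648-89816897 (minus strand) and *SLX4* at chr16:3611607-3611856 (minus strand).
BRIP1: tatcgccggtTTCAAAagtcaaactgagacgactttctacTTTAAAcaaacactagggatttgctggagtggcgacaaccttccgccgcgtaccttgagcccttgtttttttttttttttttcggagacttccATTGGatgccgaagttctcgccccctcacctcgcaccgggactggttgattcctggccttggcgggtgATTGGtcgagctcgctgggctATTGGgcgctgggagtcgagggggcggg
BLM: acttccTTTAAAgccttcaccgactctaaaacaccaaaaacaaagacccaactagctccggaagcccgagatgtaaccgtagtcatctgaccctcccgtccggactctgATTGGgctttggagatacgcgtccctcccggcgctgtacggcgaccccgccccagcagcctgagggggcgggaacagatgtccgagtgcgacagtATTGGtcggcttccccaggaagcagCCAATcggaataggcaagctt
FANCA: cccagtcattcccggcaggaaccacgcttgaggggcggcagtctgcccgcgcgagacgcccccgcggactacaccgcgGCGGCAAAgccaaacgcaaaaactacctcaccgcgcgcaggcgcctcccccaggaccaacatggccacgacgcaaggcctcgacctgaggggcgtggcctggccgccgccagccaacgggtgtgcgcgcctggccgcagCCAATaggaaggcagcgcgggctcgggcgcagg
SLX4: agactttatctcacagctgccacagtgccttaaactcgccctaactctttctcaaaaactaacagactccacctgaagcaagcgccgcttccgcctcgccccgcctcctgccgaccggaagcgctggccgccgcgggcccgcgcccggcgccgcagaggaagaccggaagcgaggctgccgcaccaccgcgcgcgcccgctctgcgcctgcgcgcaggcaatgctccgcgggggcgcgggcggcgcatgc
The motifs searched on both strands were E2F-like (TTTGGCGC, TTTCCCGC, TTTGCCGC, TTTCGCGC), CHR-like (TTTGAA or its variant TTTAAA) and the CCAAT box, and no motif of one set lies within a motif of another. *BRIP1* had 2 CHR-like and 3 CCAAT matches in the stretch, all CCAAT matches on the opposite strand. *BLM* had 1 CHR-like and 3 CCAAT matches, *FANCA* 1 E2F-like and 1 CCAAT match, and the *SLX4* stretch held none of these letters.

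RefSeq windows of 300 bases, from 250 before to 50 after a start site, were found for 43 of the 48 members, and for 27305 genes in all. *FANCI*, *NBN*, *RAD54B*, *RMI2* and *WRN* had no entry. A gene was counted when any of its windows held the motif. An E2F-like match was found for 7 of the 43 members (16.3%) and for 3.99% of all genes. These 7 were *EXO1*, *FANCA*, *FANCC*, *FANCD2*, *GEN1*, *RMI1* and *XRCC2*. CCAAT was found for 21 members (48.8%, against 39.7% of all genes) and a CHR-like match for 11 (25.6%, against 27.9%). Several members had no match of any set. Among them were *SLX4*, called higher at 48 h of PARPi, and *EME1*, *BARD1*, *FANCE* and *FANCG*, called lower there. *RAD50*, *RAD51C* and *FAAP100*, which were not called there, also had none. *ATM* and *HELQ*, not called there either, held CHR-like and CCAAT matches. Whether matches go with the direction of change was not tested. These are descriptions of letters in a window, and binding was not measured.

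Total counts lay between 55999673 and 72681943 in the PARPi experiment and between 95523038 and 120716213 in the knockdown, and the smallest level a library can show, 3 counts of its total, lay between 0.0249 and 0.0536 CPM. Any member in any library had between 14 and 11060 counts. Levels are given as CPM, read counts scaled to the library size after TMM, which compare libraries but not genes. The shRNA target *MECOM* (ENSG00000085276) had 45.2 CPM with NTC, 14.6 with shEVI1-2531 and 5.59 with shEVI1-2532 at day 3, and 41.5, 19.0 and 4.65 CPM at day 6. The deposited counts labelled shEVI1-2531 carry another number in their names, and its assignment was taken from the sample labels. *CD33* and *MPO*, myeloid markers, were expressed in all 16 libraries, with at least 5492 counts each, and *MS4A1* and *KRT5*, markers of B cells and epithelium, had 0 counts in all of them, which allows up to the 3-count level above.

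In single libraries, the members were lower mainly at 48 h of PARPi. The median log2 ratio of the 48 members to DMSO of the same hour was −0.11, −0.24 and −0.88 after olaparib for 12, 24 and 48 h. After talazoparib it was −0.12, −0.44 and −1.59. The median of all genes tested stayed between −0.033 and 0.0044 in these 6 comparisons. At 48 h, 45 members were below DMSO after olaparib and 46 after talazoparib, and for 43 and 45 of them the 95% counting interval of the ratio lay below 0. Of all genes tested, 51.9% and 51.1% were below DMSO, and 34.7% and 36.4% had such an interval below 0. The lowest ratio at 48 h belonged to *BRIP1* with both inhibitors, and the highest to *SLX4*. Across the 6 inhibitor libraries 28 members were below their DMSO library in each, and 1, *SLX4*, was above it in each. The share of all genes on 1 side in each of the 6 was not counted, and both inhibitors share the DMSO library of an hour. Ratios of single libraries have no replicate check, and their intervals cover counting error only.

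**Figure D1:**
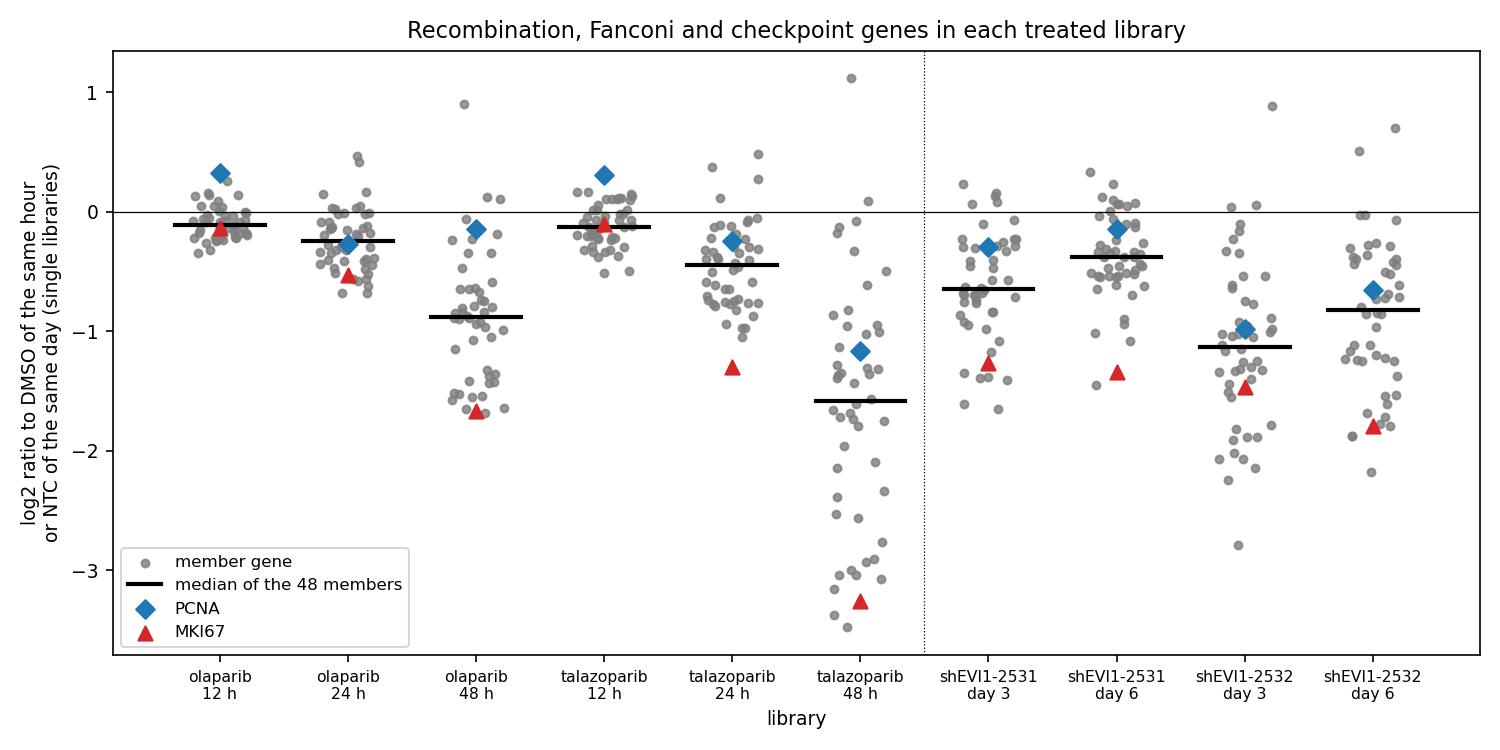
Log2 ratio of each of the 48 members (grey points) to the DMSO library of the same hour or the NTC library of the same day, in 10 single-library comparisons on the x axis, with the median (bar), *PCNA* (blue diamond) and *MKI67* (red triangle). The median falls to −1.59 after 48 h of talazoparib, where *MKI67* stands at −3.26 and *PCNA* at −1.16.

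The doses of both inhibitors differed, so their values are set side by side without a test. After 12 h, 29 of the 48 members were lower with 1 µM talazoparib than with 10 µM olaparib, after 24 h 40, and after 48 h 45, while of all genes 51.1%, 50.7% and 50.3% were. The median difference of the log2 ratios, talazoparib minus olaparib, was −0.039, −0.26 and −0.70. Both sets share their DMSO libraries.

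Against the untreated library at 0 h, the members stood higher with DMSO alone. The median log2 ratio of the 48 members was 0.36, 0.42 and 0.33 with DMSO for 12, 24 and 48 h, while that of all genes tested was 0.0027, 0.037 and 0.038. Between the DMSO libraries at 48 and 24 h it was −0.032. Set against the untreated library in place of DMSO, the medians at 12 h were therefore 0.28 after olaparib and 0.29 after talazoparib, and the sign of the small 12 h shift depends on the control.

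The effect of PARPi at each hour was fitted in edgeR with olaparib and talazoparib at that hour as a pair against DMSO, so that the difference between the inhibitors enters the error. At 12 h no member passed an adjusted p of 0.05 in edgeR or in DESeq2. In edgeR 0% of all genes were called lower and 0.134% higher. No member had an unadjusted p under 0.05 in edgeR, against 4.24% of all genes. At 24 h no member passed in edgeR and 1 was called in DESeq2. In edgeR 0.0753% of all genes were called lower and 1.72% higher. An unadjusted p under 0.05 in edgeR was found for 6 members, against 17.9% of all genes. The 9 libraries in this fit share 1 error term. Without the olaparib or the talazoparib library at 48 h the edgeR count at 24 h was 18 or 19, of which 17 were lower in either case. The share of all genes called without these libraries is not given here, and 0.0753% belongs to the fit with all 9 libraries. At 48 h 39 members were lower and 1 was higher, against 17.1% of all genes called lower and 16% called higher. The median fitted log2 fold change of the members was −1.14 at 48 h, against −0.023 for all genes tested. The count at 48 h lay between 39 and 43 when each library that could be spared was left out in turn. For the mean effect over the 3 hours and both inhibitors, no member passed in edgeR, and DESeq2 called 24 lower and 1 higher. An unadjusted p under 0.05 in edgeR was found for 35 members, against 33.9% of all genes. The edgeR count of called members was 33 without DMSO at 12 h, 27 without talazoparib at 12 h and 1 without talazoparib at 48 h. It was 33 without the 12 h libraries and 2 without the 48 h libraries. Of all genes, 1.36% were called lower and 3.44% higher in the edgeR fit with all 9 libraries. The shares with libraries left out are not given here.

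The genes of BRCA1 complexes fell at 48 h, with all 5 called lower and a median log2 fold change of −1.99. Gene positions are in GRCh38, as the files give them. *BRIP1* (ENSG00000136492, chromosome 17 from 61681266 to 61863521), the helicase that binds BRCA1, had 20.7, 23 and 21.1 CPM with DMSO for 12, 24 and 48 h, 22.8, 18.1 and 6.57 with olaparib and 22.2, 13.6 and 1.89 with talazoparib. The inhibitor libraries lay above DMSO at 12 h and below it at 24 and 48 h. The fitted change at 48 h was −2.31 (SE 0.47, adjusted p = 0.00646 in edgeR). *BRCA1* (ENSG00000012048, chromosome 17 from 43044295 to 43170245), chosen after its values were seen, had 78.5, 73.2 and 72.4 CPM with DMSO, 72.7, 60.3 and 25.4 with olaparib and 76.7, 46.8 and 8.81 with talazoparib, and its change at 48 h was −2.08 (SE 0.43, adjusted p = 0.00666 in edgeR). *PALB2* (ENSG00000083093, chromosome 16 from 23603160 to 23641310), the partner that links BRCA1 and BRCA2, fell least in this group. It had 27.1, 26.2 and 25.7 CPM with DMSO, 24.4, 22.7 and 16.5 with olaparib and 24.2, 19.9 and 10.6 with talazoparib, and changed by −0.93 (SE 0.23, adjusted p = 0.0143 in edgeR). *BARD1* and *BRCA2* stood at −1.99 and −1.21.

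Strand exchange and the paralogs of the recombinase fell unevenly. All 3 genes of annealing and strand exchange were lower at 48 h, and 3 of the 5 paralogs. *RAD54L* (ENSG00000085999, chromosome 1 from 46246461 to 46278480), a motor protein that remodels the recombinase filament, had 33.1, 25 and 21.6 CPM with DMSO, 33.9, 20.03 and 7.53 with olaparib and 35.7, 15.1 and 2.42 with talazoparib. Its change at 48 h was −2.11 (SE 0.44, adjusted p = 0.00715 in edgeR). *RAD54B* was expressed low, with 2.66, 2.47 and 2.25 CPM with DMSO, 2.13, 1.73 and 0.719 with olaparib and 2.31, 1.35 and 0.273 with talazoparib, and its change was −2.15 (SE 0.41, adjusted p = 0.00505 in edgeR). *RAD52*, which anneals single strands, had 9.73, 9.38 and 10.5 CPM with DMSO, 8.88, 9.35 and 6.59 with olaparib and 9.11, 7.67 and 5.14 with talazoparib, a fall of 0.83 on the log2 scale. Among the paralogs, *XRCC2* had 9.84, 9.21 and 7.74 CPM with DMSO, 8.38, 6.44 and 2.89 with olaparib and 7.78, 5.21 and 1.04 with talazoparib, with a change of −1.96 (SE 0.40, adjusted p = 0.00658 in edgeR). *RAD51C*, which forms a complex with XRCC2, had 28.2, 30.6 and 25.8 CPM with DMSO, 31, 28 and 22.7 with olaparib and 30.2, 26.4 and 14.7 with talazoparib. Its fitted value of −0.47 (SE 0.23, adjusted p = 0.142 in edgeR) did not pass the threshold, nor did that of *RAD51B* (−0.55). *XRCC3* and *RAD51D* were lower, at −1.09 and −1.02.

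**Figure D2:**
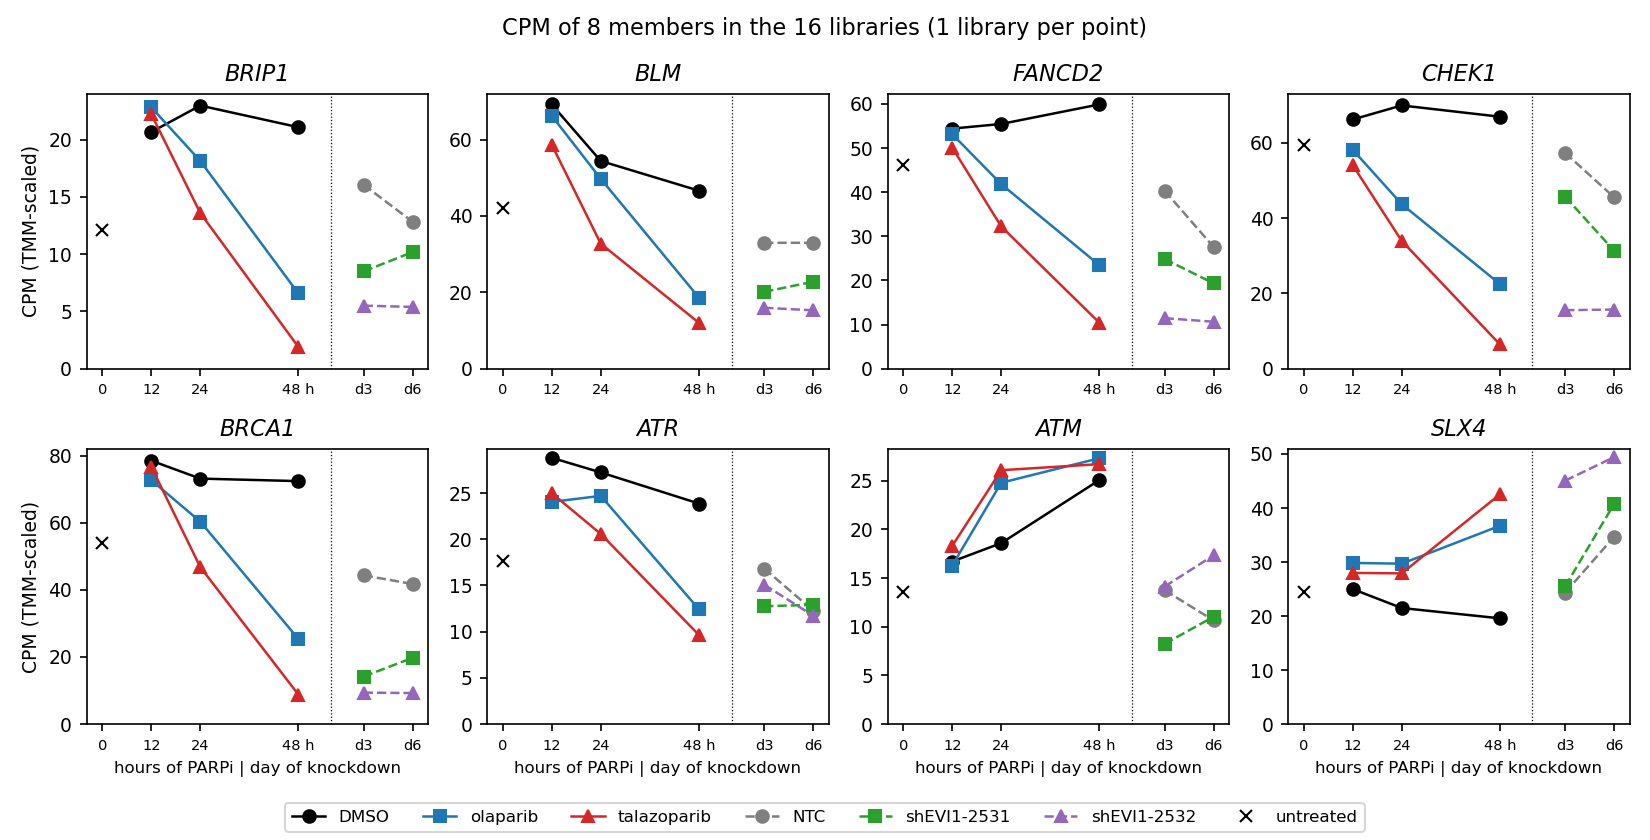
CPM (y axis, linear from 0) of 8 members in the 16 libraries, 1 library per point, with hours of PARPi and, right of the dotted line, the day of the knockdown on the x axis. *BRIP1*, *BLM*, *FANCD2*, *CHEK1* and *BRCA1* are lowest at 48 h of talazoparib or with shEVI1-2532, *ATR* is below DMSO after PARPi but close to NTC at day 6, *ATM* is above DMSO at 24 and 48 h, and *SLX4* is above its control in each treated library.

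Of the 5 resection genes 4 were lower at 48 h, as were all 4 genes of the dissolution group. *EXO1* (ENSG00000174371, chromosome 1 from 241847967 to 241895148), the exonuclease of long-range resection, had 56.9, 54 and 51.2 CPM with DMSO, 59, 43.4 and 24.8 with olaparib and 63.3, 41 and 9.79 with talazoparib, so both inhibitors were above DMSO at 12 h. Its change at 48 h was −1.56 (SE 0.38, adjusted p = 0.0124 in edgeR). *RAD50* had 5.75, 4.62 and 4.42 CPM with DMSO, 4.89, 4.78 and 3.75 with olaparib and 5.68, 5.02 and 3.52 with talazoparib, and its fitted value of −0.28 (SE 0.21, adjusted p = 0.317 in edgeR) did not pass. *RBBP8*, *MRE11* and *NBN* were lower, at −1.13, −1.07 and −0.65. *BLM* (ENSG00000197299, chromosome 15 from 90717346 to 90816166) had 69.2, 54.4 and 46.6 CPM with DMSO, 66.2, 49.7 and 18.6 with olaparib and 58.7, 32.7 and 12 with talazoparib, and each inhibitor library was below DMSO of its hour. Its change at 48 h was −1.60 (SE 0.28, adjusted p = 0.00352 in edgeR). Its partner *RMI2* had 21.2, 26.6 and 33.1 CPM with DMSO, 23.6, 20.3 and 11.3 with olaparib and 21.4, 15.7 and 4.86 with talazoparib, with a change of −2.03 (SE 0.36, adjusted p = 0.0038 in edgeR). The helicase gene *WRN* had 22.9, 23.3 and 25.2 CPM with DMSO, 21.6, 23.8 and 14 with olaparib and 19.7, 18.8 and 8.28 with talazoparib and fell by 1.17 at 48 h on the log2 scale, and *RMI1* stood at −1.27.

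In the Fanconi pathway, 9 of the 11 genes of the core and its monoubiquitination were lower at 48 h, and both genes of the ID complex. *FANCD2* (ENSG00000144554, chromosome 3 from 10026414 to 10101930) had 54.4, 55.5 and 59.9 CPM with DMSO, 53.2, 41.8 and 23.5 with olaparib and 50.1, 32.2 and 10.4 with talazoparib, with a change at 48 h of −1.82 (SE 0.35, adjusted p = 0.00524 in edgeR). *FANCI*, its partner, had 109.8, 121 and 112 CPM with DMSO, 109, 89.3 and 42.1 with olaparib and 111, 71.3 and 14.1 with talazoparib and changed by −2.0 (SE 0.44, adjusted p = 0.00863 in edgeR). *UBE2T*, whose enzyme modifies them, had 35.4, 41.9 and 49.5 CPM with DMSO, 30.5, 26.1 and 25 with olaparib and 27.5, 25.8 and 9.82 with talazoparib. With DMSO it was higher at 48 h than at 12 h and with talazoparib lower, and its change at 48 h was −1.50 (SE 0.38, adjusted p = 0.0152 in edgeR). *FANCE* had 17.2, 15.3 and 12.8 CPM with DMSO, 15.7, 10.4 and 4.96 with olaparib and 18.6, 7.80 and 2.91 with talazoparib, and its change of −1.70 (SE 0.28, adjusted p = 0.00307 in edgeR) was among the 10 with the smallest p. *FAAP100*, a core subunit, had 46, 38.2 and 31.8 CPM with DMSO, 50.3, 36 and 25.1 with olaparib and 46.4, 31.1 and 29.1 with talazoparib, so that DMSO itself was lower at 48 h than at 12 h. Its fitted value of −0.23 (SE 0.17, adjusted p = 0.327 in edgeR) did not pass, nor did that of *FANCF* (−0.42). The other core genes, *FANCA*, *FANCB*, *FANCC*, *FANCG*, *FANCL*, *FANCM* and *FAAP24*, were lower, with log2 changes from −1.49 for *FANCG* to −0.83 for *FAAP24*.

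In the group of nucleases and their partners, only the scaffold gene *SLX4* was higher at 48 h. *EME1*, the partner of MUS81, had 8.93, 8.65 and 8.37 CPM with DMSO, 7.70, 6.26 and 2.67 with olaparib and 8.43, 4.41 and 0.996 with talazoparib, and its change at 48 h was −2.18 (SE 0.40, adjusted p = 0.00459 in edgeR). *MUS81* itself, chosen after its values were seen, had 32.9, 32.7 and 33.9 CPM with DMSO, 31.2, 29.9 and 32.6 with olaparib and 31.4, 30.3 and 32.1 with talazoparib and a fitted value of −0.067 (SE 0.15, adjusted p = 0.754 in edgeR). *SLX4* (ENSG00000188827, chromosome 16 from 3581181 to 3611606), the scaffold on which several nucleases assemble, had 25, 21.5 and 19.6 CPM with DMSO, 29.8, 29.7 and 36.7 with olaparib and 28, 27.9 and 42.5 with talazoparib. Each inhibitor library was above DMSO of its hour, while DMSO at 48 h was below DMSO at 12 h, and the change at 48 h was 1.02 (SE 0.17, adjusted p = 0.00338 in edgeR). The gene overlaps AC006111.1 on the opposite strand, and how the counting used strand is not stated. The nuclease genes *GEN1* and *FAN1* were lower, at −1.13 and −0.70. Outside these groups, *POLQ*, the polymerase of theta-mediated end joining, had 19, 16.5 and 14.3 CPM with DMSO, 17.3, 13.4 and 4.93 with olaparib and 16.6, 9.66 and 2.42 with talazoparib and changed by −1.95 (SE 0.33, adjusted p = 0.00312 in edgeR). *HELQ*, a helicase of a related family, had 12, 13.9 and 17.4 CPM with DMSO, 11.3, 13.7 and 18.8 with olaparib and 10.6, 16.8 and 15.4 with talazoparib and a fitted value of −0.028 (SE 0.19, adjusted p = 0.925 in edgeR).

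Of the 4 checkpoint kinases, 3 were lower at 48 h. *CHEK1* (ENSG00000149554, chromosome 11 from 125625665 to 125676255), the effector of ATR, had 66.2, 69.9 and 66.9 CPM with DMSO, 58.2, 43.7 and 22.5 with olaparib and 54.1, 33.9 and 6.47 with talazoparib. It was below DMSO in each of the 6 inhibitor libraries, with a change at 48 h of −2.21 (SE 0.49, adjusted p = 0.00874 in edgeR). *ATR* (ENSG00000175054, chromosome 3 from 142449007 to 142578733) had 28.8, 27.2 and 23.9 CPM with DMSO, 24, 24.7 and 12.4 with olaparib and 25, 20.6 and 9.65 with talazoparib, with a change of −1.11 (SE 0.19, adjusted p = 0.00354 in edgeR). The fitted value of *CHEK2*, the effector of ATM, was −0.94. *ATM* (ENSG00000149311, chromosome 11 from 108222484 to 108369102) had 16.7, 18.6 and 25.1 CPM with DMSO, 16.3, 24.8 and 27.3 with olaparib and 18.3, 26.1 and 26.7 with talazoparib. At 24 and 48 h the inhibitor libraries lay above DMSO, and the fitted value at 48 h was 0.11 (SE 0.16, adjusted p = 0.635 in edgeR). *ATM* overlaps *NPAT* and *C11orf65* on the opposite strand, and 31 of the 48 members overlap a gene on the opposite strand in the annotation. Both genes of the 53BP1 axis, which restrains resection, fell. *RIF1* had 69.8, 62.9 and 61.9 CPM with DMSO, 62.1, 62.5 and 27.9 with olaparib and 60.3, 50.5 and 18.5 with talazoparib. *TP53BP1* had 42, 37.9 and 36.9 CPM with DMSO, 39.7, 38.6 and 23.6 with olaparib and 45.5, 36.6 and 19.1 with talazoparib. The changes of *RIF1* and *TP53BP1* were −1.42 and −0.79 at 48 h (adjusted p = 0.00267 and 0.00917 in edgeR).

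**Figure D3:**
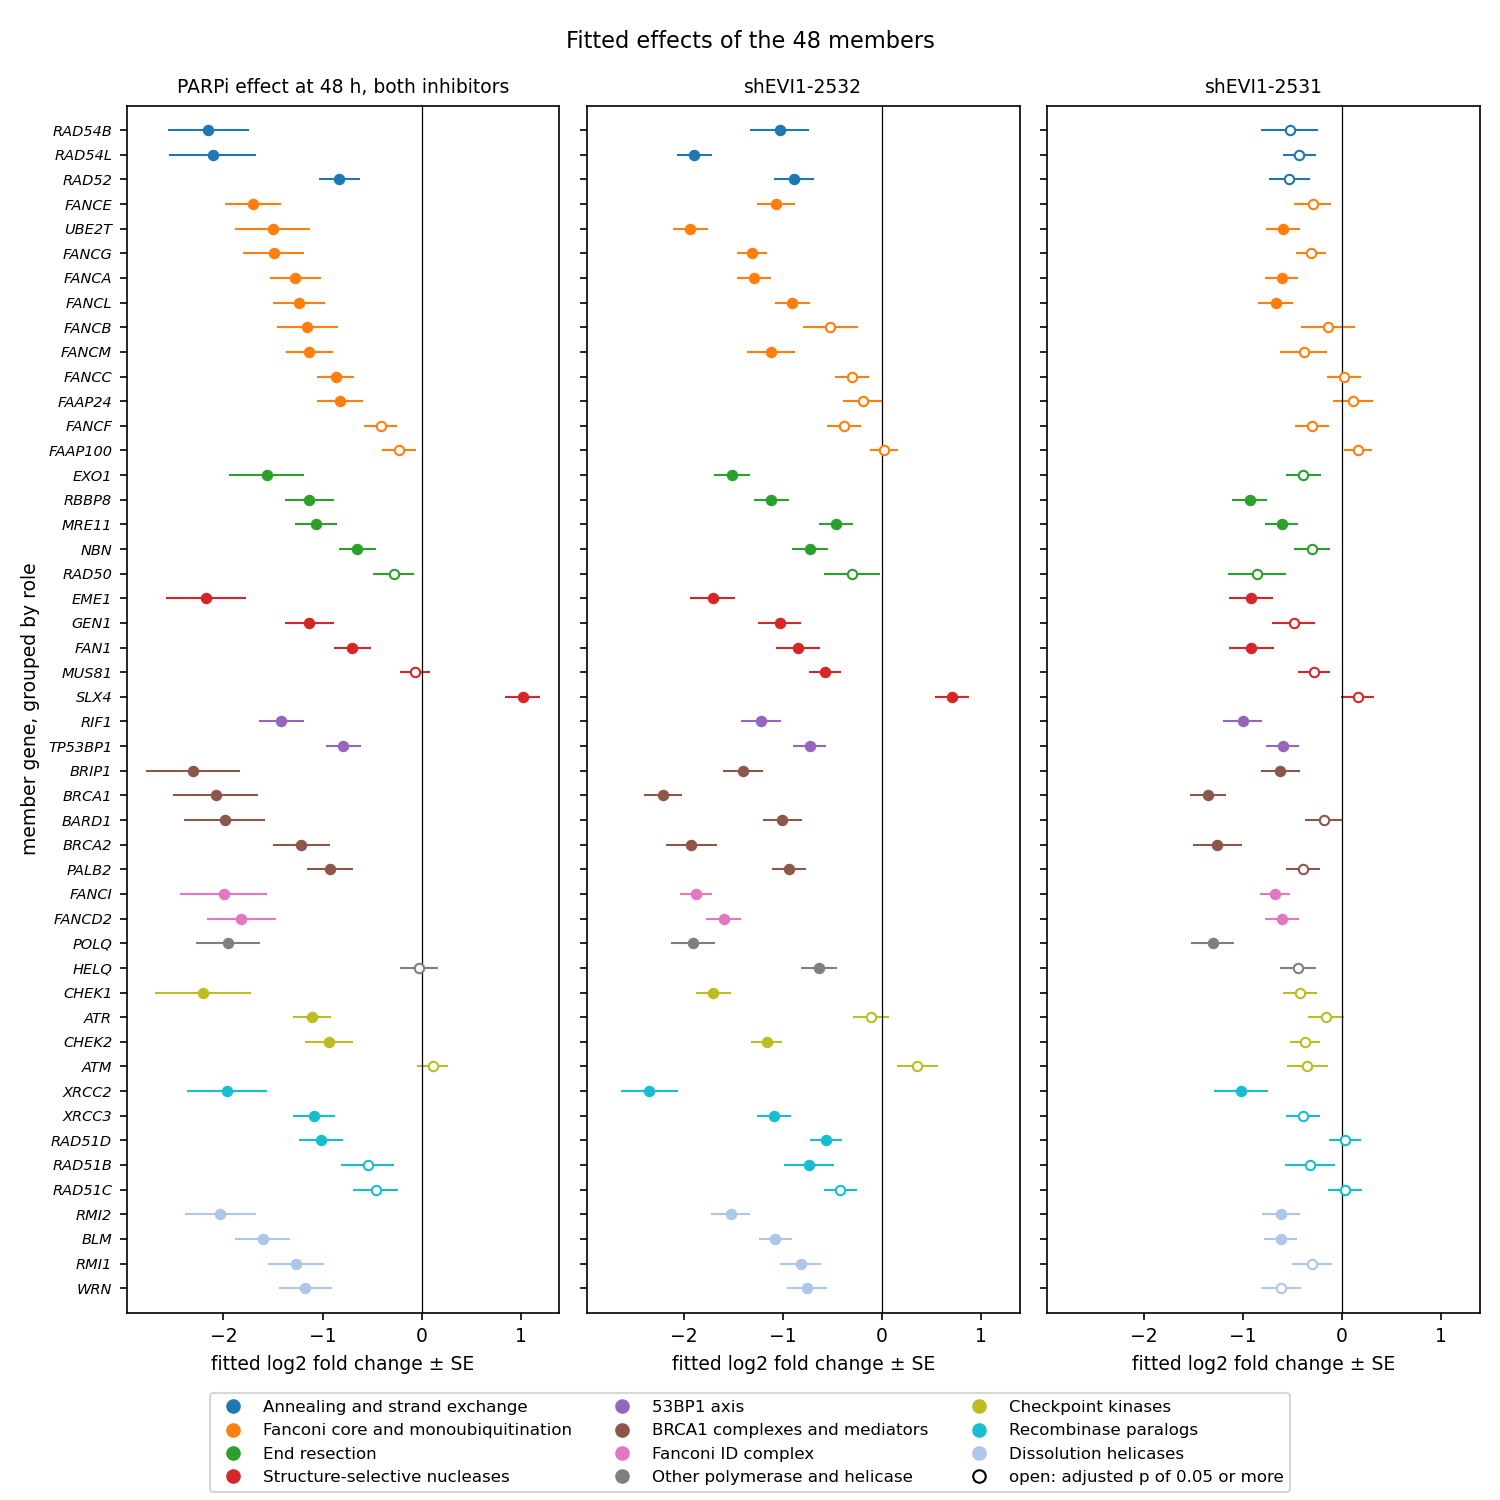
Fitted log2 fold change with its SE (x axis) of the 48 members (y axis, grouped by role and colored) for PARPi at 48 h with both inhibitors, for shEVI1-2532 and for shEVI1-2531. Filled points passed an adjusted p of 0.05 in edgeR: 40, 39 and 18 members, all lower except *SLX4* in the first and second panels.

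With shEVI1-2532, which left the least *EVI1*, 38 members were lower and 1 was higher in edgeR with the day in the model, against 21.3% of all genes called lower and 19.7% called higher. The median fitted log2 fold change was −1.02, against −0.047 for all genes tested. The count lay between 28 and 39 when each library was left out in turn, and it was 25 without the day in the model. All 5 BRCA1 complex genes, both ID complex genes and all 4 dissolution genes were lower. *XRCC2* had 6.59 and 3.80 CPM with NTC at day 3 and day 6, 0.953 and 1.03 with shEVI1-2532 and 2.51 and 2.48 with shEVI1-2531, and its change with shEVI1-2532 was −2.35 (SE 0.29, adjusted p = 2.98e-05 in edgeR). *BRCA1* had 44.3 and 41.7 CPM with NTC, 9.38 and 9.24 with shEVI1-2532 and 14.2 and 19.8 with shEVI1-2531, with a change of −2.21 (SE 0.19, adjusted p = 1.66e-06 in edgeR). *UBE2T* had 54.7 and 25.9 CPM with NTC, 12.3 and 7.86 with shEVI1-2532 and 35.1 and 17.7 with shEVI1-2531 and changed by −1.93 (SE 0.18, adjusted p = 2.77e-06 in edgeR). The NTC libraries themselves differed for *UBE2T*, and the median log2 ratio of the 48 members between NTC at day 6 and at day 3 was −0.32.

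*FANCI*, *POLQ* and *RAD54L* were also below NTC in all 4 knockdown libraries. *FANCI* had 97.5 and 69.6 CPM with NTC, 23.3 and 21.7 with shEVI1-2532 and 54.5 and 48.8 with shEVI1-2531, and changed by −1.88 (SE 0.16, adjusted p = 1.31e-06 in edgeR) with shEVI1-2532. *POLQ* had 13 and 10.5 CPM with NTC, 3.22 and 3.06 with shEVI1-2532 and 4.28 and 5.19 with shEVI1-2531 and changed by −1.90 (SE 0.22, adjusted p = 1.87e-05 in edgeR). *RAD54L* had 19.8 and 23.7 CPM with NTC, 5.27 and 6.45 with shEVI1-2532 and 15 and 17.3 with shEVI1-2531 and changed by −1.89 (SE 0.17, adjusted p = 2.79e-06 in edgeR). For each of these genes shEVI1-2532 was the lower of both shRNAs on both days. *CHEK1* had 57.3 and 45.5 CPM with NTC, 15.5 and 15.7 with shEVI1-2532 and 45.6 and 31.3 with shEVI1-2531 and changed by −1.70 (SE 0.18, adjusted p = 7.17e-06 in edgeR). *BRIP1* had 16.1 and 12.8 CPM with NTC, 5.51 and 5.39 with shEVI1-2532 and 8.50 and 10.2 with shEVI1-2531, with a change of −1.40 (SE 0.20, adjusted p = 0.000102 in edgeR). *EME1* had 7.62 and 6.24 CPM with NTC, 2.07 and 2.15 with shEVI1-2532 and 3.94 and 3.36 with shEVI1-2531, with a change of −1.71 (SE 0.23, adjusted p = 6.03e-05 in edgeR). *FANCD2*, *EXO1*, *RMI2* and *BLM* fell by 1.60, 1.51, 1.53 and 1.08 on the log2 scale.

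*SLX4* rose here as well. It had 24.3 and 34.7 CPM with NTC, 45.1 and 49.4 with shEVI1-2532 and 25.5 and 40.8 with shEVI1-2531, and the change with shEVI1-2532 was 0.71 (SE 0.17, adjusted p = 0.00487 in edgeR). Its libraries with shEVI1-2532 lay above both NTC libraries, whereas shEVI1-2531 at day 3 was close to NTC of that day. *ATR* had 16.8 and 12.3 CPM with NTC, 15.1 and 11.7 with shEVI1-2532 and 12.8 and 12.9 with shEVI1-2531, and its fitted value of −0.11 (SE 0.18, adjusted p = 0.642 in edgeR) did not pass. *ATM* had 13.7 and 10.6 CPM with NTC, 14.1 and 17.3 with shEVI1-2532 and 8.24 and 11 with shEVI1-2531 and a fitted value of 0.36 (SE 0.21, adjusted p = 0.187 in edgeR). In the Fanconi core, *FANCB*, *FANCC*, *FANCF*, *FAAP24* and *FAAP100* did not pass, and *FAAP100* had 38.7 and 60.1 CPM with NTC and 40.3 and 59.2 with shEVI1-2532.

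With shEVI1-2531, 18 members were lower in edgeR and 20 in DESeq2, and none was higher in either. In edgeR 8.76% of all genes were called lower and 9.05% higher. The median fitted log2 fold change of the members was −0.44, against −0.019 for all genes. The edgeR count of called members was 5 without the NTC library or the shEVI1-2531 library at day 3. It was up to 20 without another library and 2 without the day in the model. *BRCA1* changed by −1.35 (SE 0.19, adjusted p = 0.000302 in edgeR) and *POLQ* by −1.31 (SE 0.22, adjusted p = 0.00108 in edgeR). *BRCA2* had 5.51 and 5.41 CPM with NTC and 2.60 and 1.99 with shEVI1-2531, with a change of −1.26 (SE 0.25, adjusted p = 0.00355 in edgeR). *RIF1* had 42.5 and 34.6 CPM with NTC and 16 and 22.6 with shEVI1-2531, with a change of −1.0 (SE 0.20, adjusted p = 0.00366 in edgeR). None of the 4 checkpoint kinases and none of the 3 genes of annealing and strand exchange passed with this shRNA in edgeR, where the smallest adjusted p was 0.0896. Their fitted values ran from −0.53 for *RAD52* to −0.16 for *ATR*. The difference between the shRNAs was not tested.

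The 18 members lower with shEVI1-2531 were all among the 39 lower with PARPi at 48 h, of which they are 46.2%. Of the 38 members lower with shEVI1-2532, 35 (92.1%) were lower with PARPi at 48 h, and these are 89.7% of the 39. Over all genes tested, 49.9% of those lower with shEVI1-2532 and 48.9% of those lower with shEVI1-2531 were lower with PARPi at 48 h, which are 62.3% and 25.05% of the genes lower with PARPi. The experiments share no library, but the members were chosen as 1 pathway and genes are not independent replicates. Across the 48 members the fitted changes with PARPi at 48 h and with shEVI1-2532 had a Pearson r of 0.82 and a Spearman rho of 0.81, and with shEVI1-2531 0.46 and 0.47, given as a description. Across all 18597 genes tested the values were 0.57 and 0.62 with shEVI1-2532 and 0.48 and 0.48 with shEVI1-2531, and the difference from the members was not tested. The members that departed were *ATR*, *FANCC*, *FAAP24* and *FANCB*, lower with PARPi and not called with shEVI1-2532, and *HELQ*, *MUS81* and *RAD51B*, called lower with shEVI1-2532 and not with PARPi.

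**Figure D4:**
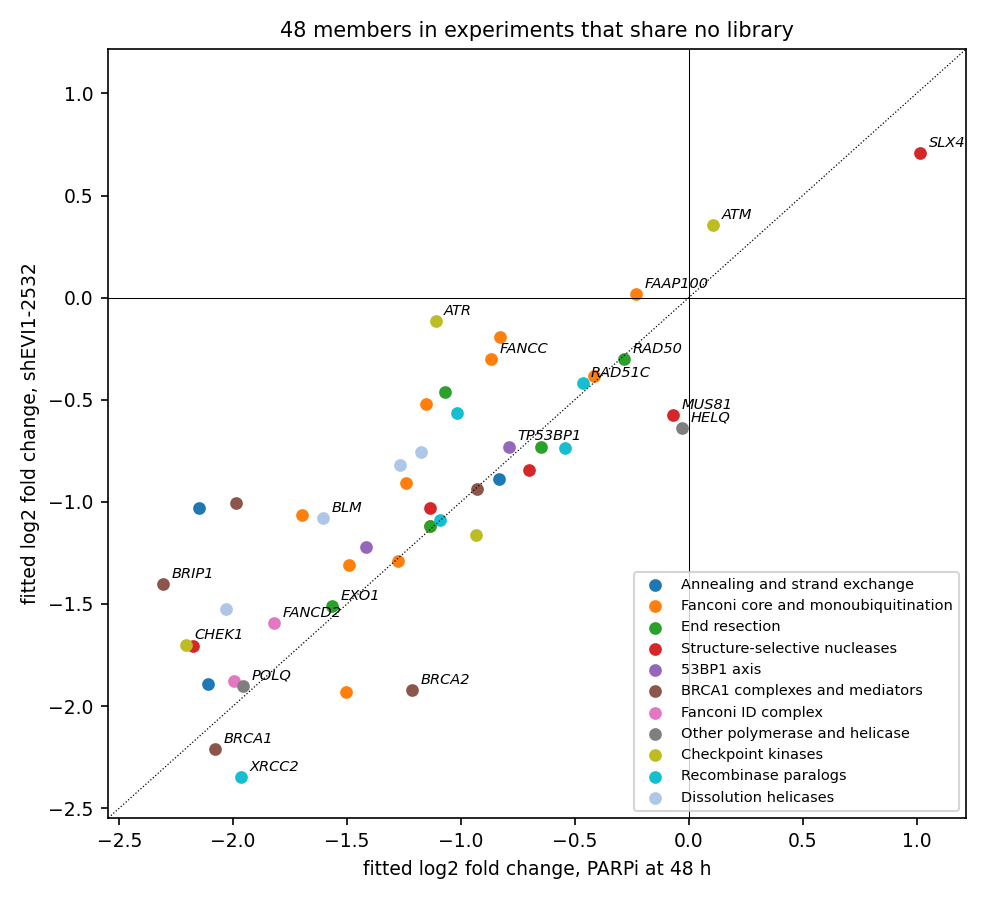
Fitted log2 fold change of the 48 members for PARPi at 48 h (x axis) and for shEVI1-2532 (y axis), colored by role, with the line of equal change dotted. *BRCA1* and *POLQ* are low in both, *SLX4* is high in both, and *ATR* at −1.11 and −0.11 lies far above the line.

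*MKI67* was lower in each treated library, and at 48 h of PARPi its ratio was below that of nearly all genes, members included. *MKI67* had 271, 212 and 178 CPM with DMSO for 12, 24 and 48 h, 247, 146 and 56.2 with olaparib and 253, 86.3 and 18.6 with talazoparib, and 124 and 147 with NTC, 51.4 and 57.8 with shEVI1-2531 and 44.7 and 42.4 with shEVI1-2532 at day 3 and day 6. *PCNA* had 448, 575 and 480.2 CPM with DMSO, 562, 478 and 434 with olaparib and 554, 484 and 215 with talazoparib, and 532 and 290.2 with NTC, 435 and 262 with shEVI1-2531 and 270.2 and 184 with shEVI1-2532. *PCNA* was above DMSO at 12 h with both inhibitors, close to DMSO after 48 h of olaparib and lower after 48 h of talazoparib. A ratio lower than that of *PCNA* was found for 44 of the 48 members with olaparib at 48 h (43.5% of all genes) and for 33 with talazoparib at 48 h (13.0% of all genes). The counts were 31 at day 3 and 29 at day 6 with shEVI1-2532 (16.3% and 23.2% of all genes), and 35 and 34 with shEVI1-2531 (34.4% and 38.6%). A ratio lower than that of *MKI67* was found for 1 member with olaparib and 2 with talazoparib at 48 h (2.41% and 0.804% of all genes). These counts were 13 and 4 with shEVI1-2532 (9.09% and 6.40%) and 6 and 1 with shEVI1-2531 (7.79% and 5.55%) at day 3 and day 6.

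The difference itself was tested in edgeR with the counts of the reference gene in place of the library size. Relative to *PCNA*, 7 members were lower and 1 higher after PARPi at 48 h, against 0.85% and 10.2% of all genes. These were *BRIP1*, *CHEK1*, *EME1*, *RAD54L*, *BRCA1*, *BARD1* and *RMI2*, with log2 differences from −1.87 to −1.50, and *SLX4* at 1.79. DESeq2 called 12 lower and 1 higher. The total of 8 was 0 without any one of the inhibitor libraries at 12 or 24 h, 32 without olaparib at 48 h and 36 without talazoparib at 48 h. The shares of all genes called without those libraries are not given here. With shEVI1-2532, 15 members fell further than *PCNA* and 6 less far or rose, against 5.63% and 54.4% of all genes. *XRCC2* and *BRCA1* led, with log2 differences of −1.53 (SE 0.29) and −1.38 (SE 0.21). With shEVI1-2531 *BRCA1*, *POLQ*, *BRCA2*, *RIF1* and *RBBP8* fell further than *PCNA*, against 4% of all genes. No member was called the other way in edgeR or DESeq2, against 13.3% of all genes in edgeR. The edgeR count of called members was 1 without the NTC or the shEVI1-2531 library at day 3 and 8 without either shEVI1-2532 library.

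Relative to *MKI67*, no member passed as lower after PARPi at 48 h in edgeR or DESeq2, and 0.0161% of all genes were called lower in edgeR. The 7 members with an unadjusted p under 0.05 in edgeR were all higher, against 66.1% of all genes at such a p in either direction. Of these 7 members, 4 passed the adjusted threshold, *SLX4*, *ATM*, *MUS81* and *HELQ*, against 46.8% of all genes called higher. DESeq2 called 17 members higher. The count of 4 was 0 without any one of the inhibitor libraries at 12 or 24 h and 31 without olaparib at 48 h. With shEVI1-2532, *XRCC2* and *BRCA1* fell further than *MKI67*, by 0.72 (SE 0.33) and 0.59 (SE 0.25) on the log2 scale (adjusted p = 0.0362 and 0.0213 in edgeR), against 2.19% of all genes, and 29 members were higher relative to it, against 79.4%. With shEVI1-2531, 39 members were higher relative to *MKI67*, against 77%. No member was lower in edgeR or DESeq2, against 1.21% of all genes in edgeR. The total of 31 with shEVI1-2532 was 16 without NTC and 17 without the shRNA at day 6. The total of 39 with shEVI1-2531 was 19 without NTC at day 6, 20 without the shRNA at day 3 and 24 without it at day 6.

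The 10 proliferation genes were lower in the same contrasts. At 48 h of PARPi 9 of them were lower, all but *PCNA* (17.1% of all genes), with a median log2 fold change of −1.92. With shEVI1-2532 all 10 were lower (21.3% of all genes), with a median of −0.95, and with shEVI1-2531 5 were lower (8.76% of all genes), with a median of −0.34. Relative to *PCNA*, 4 of the other 9 were lower at 48 h of PARPi (0.85% of all genes). Their median log2 difference was −1.59, against −0.55 for the members. With shEVI1-2532 4 of the 9 were lower (5.63% of all genes), with a median of −0.15, against −0.20 for the members. With shEVI1-2531 2 were lower (4% of all genes), with a median of −0.22, as for the members. The part of the proliferation genes in the fall of the members was not tested.

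The other genes of the pathway, a list of 57 that holds no member, were also lower in part. At 48 h of PARPi 34 of them were lower and 2 higher (17.1% and 16% of all genes), with a median of −0.69. With shEVI1-2532 36 were lower and 4 higher (21.3% and 19.7% of all genes), with a median of −0.65. With shEVI1-2531 12 were lower (8.76% of all genes), with a median of −0.22. At 24 h the fitted median of this list was −0.35, and that of the members was −0.34. The difference between the lists was not tested. The checkpoint mediator *CLSPN*, the nuclease-helicase *DNA2* and the helicase *MCM8* changed by −2.02, −1.97 and −1.86 at 48 h. The deubiquitinase *USP1*, which acts on FANCD2, changed by −1.83, and *TOPBP1*, an activator of ATR, by −1.41. *NABP1*, a single-strand binding protein, and *FAAP20*, a subunit of the Fanconi core, were higher by 1.13 and 0.62.

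Markers of monocytes rose in the libraries in which the members fell. The summed level of *CD14*, *LYZ*, *CD68* and *ITGAM* was 245 to 406 CPM with DMSO, 259.6 to 301 at 12 h of PARPi, 647 to 1146 at 24 h and 2039 to 4127 at 48 h. It was 218 to 248 CPM with NTC, 1202 to 1365 with shEVI1-2531 and 5119 to 6512 with shEVI1-2532. Of these 4 genes *CD14*, *LYZ* and *ITGAM* were higher in each of the 3 contrasts in edgeR, and *CD68*, at 0.29 CPM or less in every library, was called higher with shEVI1-2532 alone. The summed level of *CD34*, *KIT*, *CD33* and *MPO*, markers of myeloid progenitors, was 1750 to 2917 CPM with DMSO and 837 to 1255 at 48 h of PARPi, and 3883 to 4184 with NTC, 4056 to 5511 with shEVI1-2531 and 2297 to 3366 with shEVI1-2532. *MPO* makes up most of these sums, and the 4 genes did not move together. *CD34* was lower in edgeR in the 3 contrasts, with log2 changes of −1.71 at 48 h of PARPi, −6.82 with shEVI1-2532 and −2.45 with shEVI1-2531, and *CD33* was higher in each, by 0.69, 0.83 and 0.45. *KIT* was lower with shEVI1-2532 (−1.34) and higher with shEVI1-2531 (0.69), with a value of −1.09 at 48 h that did not pass. *MPO* was lower at 48 h (−1.65), with values of −0.41 and 0.38 with shEVI1-2532 and shEVI1-2531 that did not pass. Their part in the changes of the members was not tested.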

How the data were processed

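RNA of MUTZ-3 cells was sequenced as paired 100 bp reads from stranded mRNA libraries, 1 library for each of 16 conditions. The authors deposited 1 table per library with a raw count and a TPM for each gene. Per the labels, reads were aligned with STAR to GRCh38, Picard was used and genes were counted with featureCounts. Versions, annotation and the strand setting of the counting are not given in the sources used here. The deposited TPM were computed over the full span of each gene and served only to check that length.

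Counts were read as deposited, and genes with 10 or more counts in at least 3 libraries were tested. TMM factors were taken over all 16 libraries. edgeR 4.0.16 in R 4.3.3 fitted the quasi-likelihood model to 9 PARPi libraries with the hour as a factor (the untreated library has no partner of its hour and was left out) and to the 6 knockdown libraries with the day as a factor, and p-values were adjusted over all genes tested by the Benjamini-Hochberg method at 0.05. With 1 library per condition, the error comes from both inhibitors at the same hour or from both days of an shRNA. In the fit of the mean PARPi effect it comes from how far the hours depart from one another. The p-values measure these spreads and not that of repeated cultures. Intervals of single-library ratios are 95% intervals for counting error only. In comparisons with *PCNA* or *MKI67*, the counts of that gene took the place of the library size. In those with *MKI67*, and in that with *PCNA* at 48 h, the p-values rest on a spread shared over genes. They do not measure the spread of a single gene between inhibitors or days. DESeq2 1.42.0, other scalings, filters and thresholds and the leaving out of libraries were tried as alternatives. The shares of all genes called are those of the main edgeR fits, and shares under the alternatives are not given. The main fits, but not those relative to *PCNA* or *MKI67*, were run on simulated counts with a common spread for all genes. Apart from planted changes, these counts held no difference between inhibitors, hours or days. They therefore do not test the error in the real libraries.

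Named members were those among the 10 smallest p at 48 h and, in each role group, those with the lowest and highest ratio after talazoparib at 48 h. Others, such as *BRCA1*, *BRCA2* and *MUS81*, were named after their values were seen. The members and the lists of other pathway, proliferation and marker genes were chosen with earlier results of these data known. Promoters were taken from RefSeq, GRCh38.p14. The recombinase itself is not reported here.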

Additional observations from a re-analysis of the deposited data

Results flagged for a closer look

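*FAAP24*, a subunit of the Fanconi core complex, stood on opposite sides of its control with the 2 shRNAs. Its log2 ratio to NTC of the same day was 0.16 at day 3 and 0.069 at day 6 with shEVI1-2531, and −0.099 and −0.29 with shEVI1-2532. Every library of one shRNA was above NTC and every library of the other below it, but the difference was not tested, and neither shRNA passed the threshold for this gene in edgeR.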

How the results depend on the processing

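Each condition has 1 library, so no replicate number could serve as a block. The hour or the day was a factor in the fits. Among the 71 alternatives for counts of called members that left out no library, 58 stayed within 1.5 times the reported count. The mean PARPi effect gave 25 called members in DESeq2 and 33 without a filter, and the effect at 24 h gave 1 and 8. Without the day in the model, 25 members were called with shEVI1-2532 and 2 with shEVI1-2531, and at an adjusted p of 0.01 6 were called with shEVI1-2531. Relative to *PCNA*, the 48 h count was 0 at 0.01 and 13 in DESeq2, and that of shEVI1-2531 was 2 and 8. Relative to *MKI67*, the 48 h count was 0 and 17.

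With libraries left out in turn, the called members ranged from 0 to 33 for the mean PARPi effect, 0 to 0 at 12 h, 0 to 19 at 24 h, 39 to 43 at 48 h, 28 to 39 with shEVI1-2532 and 5 to 20 with shEVI1-2531. Relative to *PCNA* they ranged from 0 to 36 at 48 h, 15 to 20 with shEVI1-2532 and 1 to 8 with shEVI1-2531, and relative to *MKI67* from 0 to 31, 16 to 31 and 19 to 41. The lowest counts with shEVI1-2532 and shEVI1-2531 were those without NTC at day 3, and relative to *MKI67* those without NTC at day 6.

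Against the untreated library, the median ratio of the members was 0.28 and 0.29 at 12 h, 0.15 and −0.12 at 24 h, and −0.59 and −1.05 at 48 h, for olaparib and talazoparib. Talazoparib at 12 h against DMSO at 48 h gave −0.027. Scaling by library totals alone gave −1.03 for olaparib and −1.82 for talazoparib at 48 h, −0.81 and −0.51 for shEVI1-2531 and −1.35 and −1.12 for shEVI1-2532 at day 3 and day 6. That scaling moved the median of all genes to −0.18 and −0.26 at 48 h and to between −0.31 and −0.14 in the knockdown. Over the 43 members with 100 or more counts in every library, talazoparib at 48 h gave −1.39. That filter removed *BRIP1*, *XRCC2*, *RAD54B*, *FANCB* and *EME1* because of their low counts in that library, so a median closer to 0 follows from the filter and says nothing of stability.

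For named members, 15 of 1118 alternatives changed the sign, none of a value that had passed the threshold. With library totals, *ATM* was −0.084 at 48 h, *FAAP100* −0.25 with shEVI1-2532 and *RAD51C* −0.12 with shEVI1-2531. *HELQ* at 48 h was 0.0092 in DESeq2, 0.077 with upper-quartile scaling, 0.0014 with a filter of 1 CPM and between −0.18 and 0.11 with libraries left out in turn. *FAAP100* with shEVI1-2532 was −0.0068 without a filter. With libraries left out in turn, *FAAP100* ranged from −0.036 to 0.070 with shEVI1-2532, and *ATR* from −0.25 to 0.031. With shEVI1-2531, *ATM* ranged from −0.71 to 0.022, *ATR* from −0.38 to 0.048, *SLX4* from −0.031 to 0.32 and *RAD51C* from −0.094 to 0.14, with −0.0014 without NTC at day 6. The cause of these moves was not tested.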
